A study of Canis lupus familiaris with 81 samples.

Results

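Counts of 2010 probes were compared between 2 regions of the same osteosarcoma in 10 dogs' tumours, numbered 404, 501, 610, 702, 1001, 1002, 1701, 2201, 2203 and 2206. These are all the tumour numbers with 2 regions on each of 2 tissue microarrays, and they give 40 of the 80 tissue regions of the series, with 4 regions per tumour. Of the others, 28 were regions of 14 tumours with 1 region per array and 12 were regions of kidney, spleen or liver, with 4 regions each. The tumours were appendicular osteosarcomas, which arise in the limb bones, from pet dogs enrolled in an osteosarcoma trial of the Comparative Oncology Trials Consortium, and each tumour number was taken as 1 tumour. The study set dogs with long and short disease-free intervals against each other, but the labels give no interval, treatment or age per region, so none was used. Within each tumour and array, region A is the one with the lower number in the labels and region B the one with the higher number. Differences are region B minus region A, or region B over region A, so that their sign has no meaning shared by different tumours.

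Osteosarcoma is a malignant bone tumour whose cells lay down bone matrix. Its tissue commonly differs from place to place in the amount of matrix, tumour cells, vessels, osteoclasts and immune cells. In the GeoMx assay, probes with DNA tags are hybridised to a tissue section, the tags are released by light from a chosen region, and the released tags are sequenced and counted. A tissue microarray holds small cores of many specimens on 1 slide, so 2 regions of a tumour can lie in different cores. The labels do not say how the regions were chosen or whether a region on array 2 continues a region on array 1. A region is a mixture of cells, and fewer cells of a type cannot be told apart from less RNA per cell. The files pair no probe with a gene name, so probes are given by their identifiers, no role is stated for any of them, and the labelled tissue could not be checked against marker genes.

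Total counts were 17711 to 1069118 per region, with a median of 246576.5. The lowest total belonged to region A of tumour 2206 on array 2, where the median count per probe was 2. The totals of regions B and A differed by a log2 ratio of -1.98 on array 1 and -1.44 on array 2 in tumour 1701, and of -1.93 and -2.58 in tumour 1001. All tests below use edgeR's quasi-likelihood test on the counts of the 40 regions, scaled by the trimmed mean of M-values (TMM), with array as a covariate and Benjamini-Hochberg adjustment over 2010 probes at a threshold of 0.05. Each place in a tumour had 2 libraries, 1 per array, so the p-values measure the spread between arrays within these tumours and say nothing about other dogs.

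The 2 regions of a tumour differed in many probes, and the number varied widely between tumours. Over the 10 tumours together, 617 probes passed the F test, which is 30.7% of those tested. Tumour 404 had 127 probes higher and 201 lower in region B, or 16.3% of the probes. Tumour 2201 had 184 higher and 124 lower (15.3%), tumour 1001 had 189 higher and 83 lower (13.5%), and tumour 1002 had 104 higher and 125 lower (11.4%). Tumour 702 followed with 93 higher and 41 lower (6.67%). Far fewer probes passed in the rest, with 13 higher and 15 lower in tumour 1701 (1.39%), 7 and 16 in tumour 501 (1.14%), 0 and 4 in tumour 610 (0.199%) and 1 and 3 in tumour 2206 (0.199%). No probe passed in tumour 2203 (0%) with edgeR or with DESeq2, where 57 probes had an unadjusted edgeR p below 0.05. In tumours 2203 and 2206 the letters are crossed between arrays by the counts, as given below. Their low numbers therefore do not show that their regions are alike. In the crossed order, chosen on the same counts, they had 153 and 190 calls. The balance of higher and lower calls moved with the scaling. Upper quartile scaling gave 178 higher and 129 lower in tumour 404, 138 and 173 in tumour 1001 and 59 and 57 in tumour 702. Library size alone gave 32 and 920 in tumour 404, 621 and 6 in tumour 501, 357 and 67 in tumour 2201, 75 and 167 in tumour 1002, 12 and 23 in tumour 1701 and 1 and 1 in tumour 2206. DESeq2 gave 13 and 25 in tumour 1701 and 2 and 1 in tumour 2206. Library size alone put the median log2 fold of all probes at -0.95 in tumour 404 and 0.87 in tumour 501, against -0.005 and 0.03 with TMM scaling, and called 1211 probes in the F test. Upper quartile scaling put that median at 0.19 in tumour 404, -0.27 in tumour 1001 and -0.22 in tumour 702. With array fitted within each tumour 398 probes passed the F test, with 64 in tumour 702, 11 in 1701, 15 in 501, 0 in 610 and 1 in 2206.

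**Figure D1:**
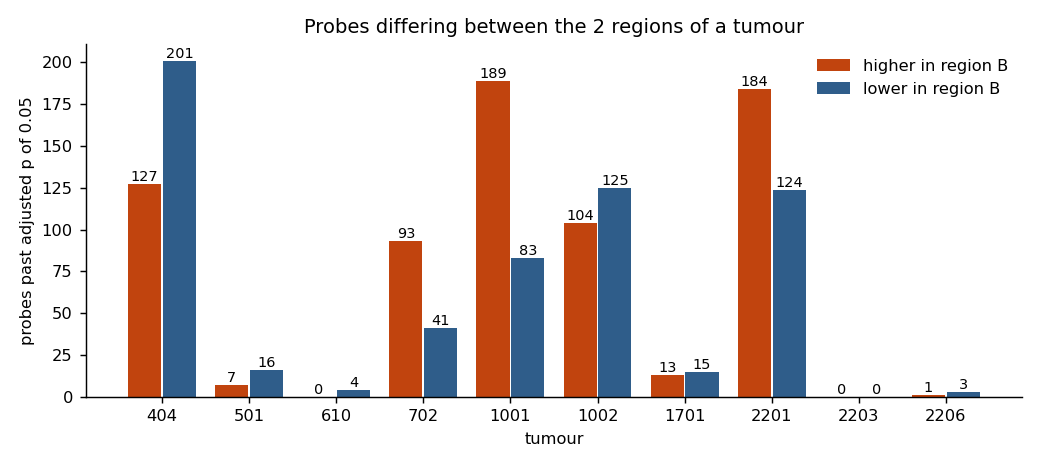
Number of probes, of 2010, past an adjusted edgeR p of 0.05 in each tumour (horizontal axis), split into those higher in region B (orange, left bar) and lower in region B (blue, right bar). Tumours 404, 702, 1001, 1002 and 2201 had 134 to 328 such probes and the other tumours had 0 to 28.

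The calls differed in how many tumours they covered. Of the 2010 probes, 1212 were called in 0 tumours, 465 in 1, 193 in 2, 95 in 3, 33 in 4, 10 in 5 and 2 in 6. Calls were more frequent among abundant probes. Of the 503 probes with the highest mean level, 319 passed the F test (63.4%), against 40 of the 503 with the lowest (7.95%). No relation between the number of probes called in the order of the labels and depth was detected with 10 tumours. The correlation of that number with the log2 of the tumour's lowest total gave Pearson r = 0.038 (permutation p = 0.92) and Spearman rho = -0.085 (permutation p = 0.82). Without tumours 2206 and 610, which lay farthest from the median depth, r was -0.14. Tumours 2203 and 2206 entered with 0 and 4 calls, from letters that the counts cross. The correlation therefore cannot say how calls relate to depth in the crossed order. The relation of calls to depth was the only relation across tumours that was tested, and the other correlations over tumours given below are descriptions. With every region thinned to 17711 counts, 105 probes passed the F test, with 80 in tumour 1001, 60 in tumour 2201, 55 in tumour 404 and 48 in tumour 1002. Tumour 501 kept 11 and tumours 702 and 1701 had 1 each, against 134 and 28 without thinning, and the other tumours had 0.

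Whether region A on array 1 is the same place as region A on array 2 was examined from the counts. The chi-square per degree of freedom between a pair of libraries is near 1 where they differ by counting noise alone. For a given difference it rises with the total counts, so it does not rank tumours or arrays. In tumour 404 the totals of regions B and A were 442877 and 627762 on array 1, against 73935 and 329626 on array 2. In the 8 tumours other than 2203 and 2206, libraries of the same letter on different arrays gave 1.20 to 3.11. Region B against region A on the same array gave 75.01 and 18.79 in tumour 404, 34.0 and 10.4 in tumour 2201, and 14.0 and 21.6 in tumour 1001. It was 2.27 on both arrays in tumour 610, close to the 1.96 (B with B) and 1.85 (A with A) of its libraries of the same letter. In tumour 2203 the order was turned round. Region B on array 1 against region A on array 2 gave 1.18, and region A on array 1 against region B on array 2 gave 1.15. Libraries of the same letter in that tumour gave 4.28 for B and 5.39 for A. Tumour 2206 had 1.17 and 1.34 for different letters across arrays, against 5.10 for B and 4.76 for A with the same letter.

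**Figure D2:**
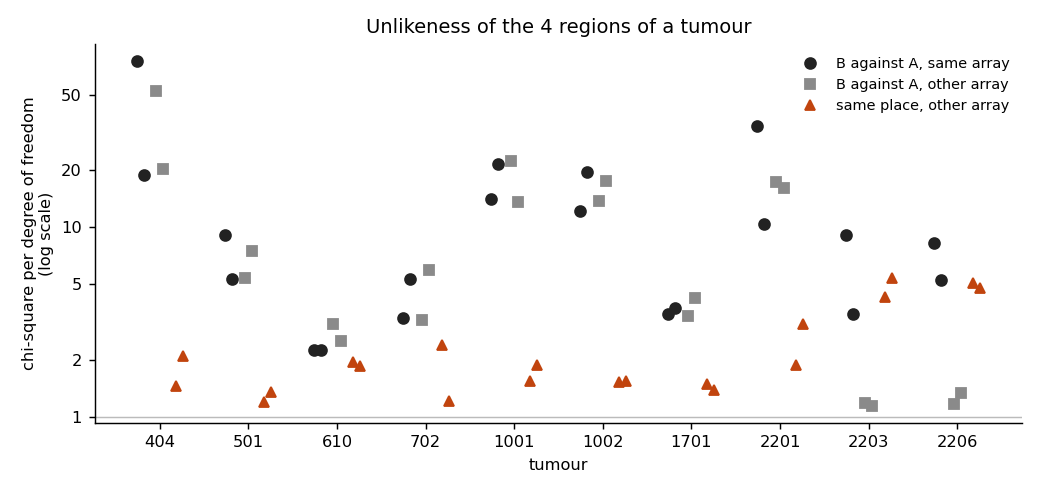
Chi-square per degree of freedom over probes (vertical axis, log scale) for pairs of libraries of 1 tumour (horizontal axis): regions B and A on the same array (black circles), regions B and A on different arrays (grey squares) and regions of the same letter on different arrays (orange triangles). The triangles are the lowest points in every tumour except 2203 and 2206, where the squares lie at 1.15 to 1.34.

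Reading tumours 2203 and 2206 in the crossed order, a choice made after these values were seen, gave 153 calls in tumour 2203 and 190 in tumour 2206, and 849 in the F test over 10 tumours. Because the order was chosen on the same counts, these are not independent calls. Leaving both tumours out gave 828 calls over the other 8. The values of single probes show the crossing. Probe RTS0113072 was at 9349 CPM (counts per 1e+06 of the TMM-scaled library total) in region B on array 1 and 10220 in region A on array 2 of tumour 2206, against 370.2 in region A on array 1 and 239.1 in region B on array 2. In tumour 2203 it was at 19570 CPM in region B on array 1 and 20760 in region A on array 2, against 4838 in region A on array 1 and 5399 in region B on array 2. In both tumours the high pair of regions did not overlap the low pair. Probe RTS0112424 was at 112.5 and 123.3 CPM in the same pair of places of tumour 2203 and at 514.4 and 509.1 CPM in the others. Other values here keep the order of the labels unless the crossed order is named.

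The differences between regions B and A recurred on the other array in most of the tumours with many calls. Calls were made from the same libraries of both arrays, so recurrence in tumours with many calls is partly built in and is a description. Across 2010 probes, the Pearson correlation of the difference on array 1 with that on array 2 was 0.69 in tumour 1002, 0.62 in tumour 1001, 0.52 in tumour 2201, 0.44 in tumour 702, 0.31 in tumour 404 and 0.22 in tumour 1701. It was 0.08 in tumour 501 and 0.03 in tumour 610, and -0.27 in each of tumours 2203 and 2206. These correlations describe probes that share libraries and carry no test. Their median over the 10 tumours was 0.27, and 0.42 over the 1340 probes with a mean count of at least 20. Of the probes at least 2-fold apart in tumour 1002, 67 were so on both arrays in the same direction, which is 63.2% of the 106 on array 1 and 63.2% of the 106 on array 2, and 0 were so in opposite directions. Tumour 1001 had 158 such probes, or 46.5% of those on array 1 and 48.2% of those on array 2, with 1 in opposite directions. Tumour 2201 had 137 (67.5% and 29.0%) against 6 in opposite directions, and tumour 404 had 156 (49.1% and 19.5%) against 26. Tumour 610 had 0 in the same direction and 2 in opposite directions. Tumour 2206 had 49 in the same and 175 in opposite directions, and tumour 2203 had 3 and 29. A difference of at least 2-fold on both arrays, in the same direction, was seen in 1 tumour for 362 probes, in 2 for 84, in 3 for 36, in 4 for 5 and in 5 for 4.

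**Figure D3:**
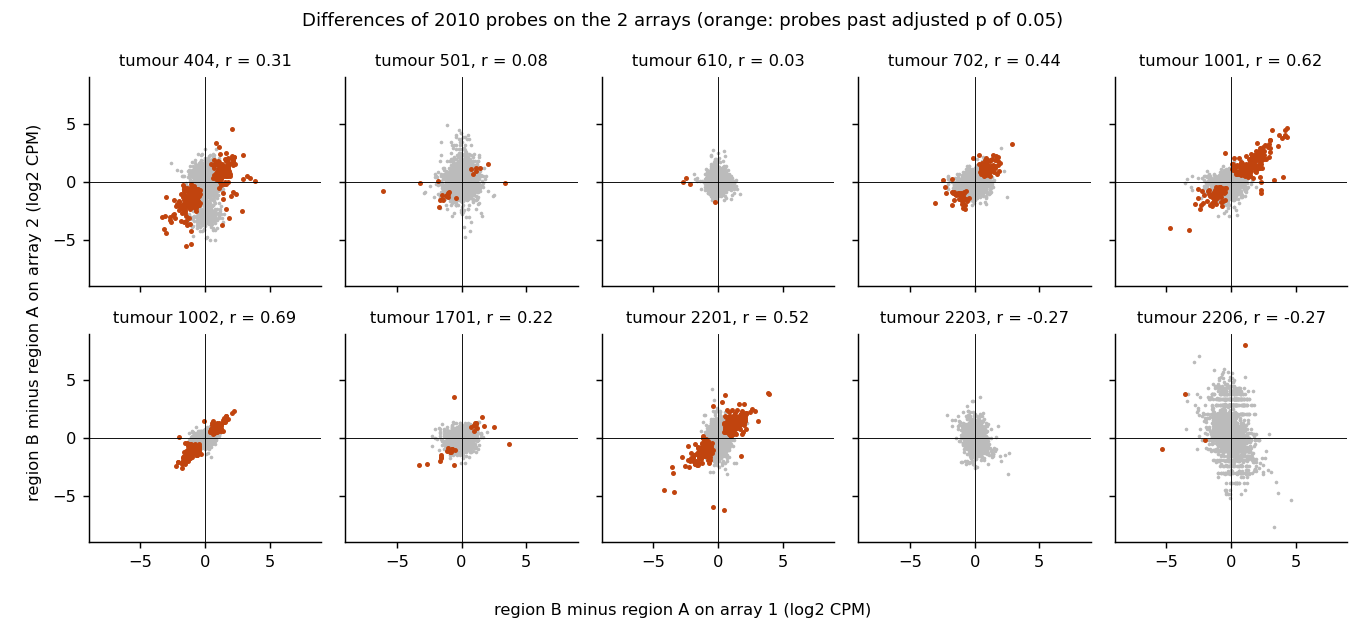
Difference between regions B and A of each of 2010 probes on array 1 (horizontal axis) and array 2 (vertical axis), in log2 CPM, with 1 panel per tumour, orange points for probes past an adjusted p of 0.05 in that tumour and the Pearson r over probes in the panel title. The points run along the rising diagonal in tumours 1002, 1001 and 2201 and along the falling one in tumours 2203 and 2206.

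In the order of the labels, the probe with the largest within-tumour differences was RTS0113473. Its root mean square difference, averaged over the arrays in each tumour, was 2.04 log2 units over the 10 tumours. The median of this measure was 0.55 over all probes. In tumour 1001 RTS0113473 was at 1993 and 1693 CPM in region B on arrays 1 and 2, against 106.5 and 102.5 CPM in region A. Tumour 2201 had 2283 and 1768 CPM in region B, against 151.1 and 114.9 CPM in region A. Tumour 702 had 947.5 and 1134 CPM in region B, against 118.2 and 116.6 CPM in region A. In these tumours the 2 libraries of region B lay far above those of region A, with log2 folds of 4.14 ± 0.30 in tumour 1001 (SE, adjusted p = 1.34e-13), 3.86 ± 0.32 in tumour 2201 (adjusted p = 1.52e-11) and 3.15 ± 0.36 in tumour 702 (adjusted p = 3.7e-07). Tumour 404 was high in all 4 regions, at 3566 and 1731 CPM in region B and 1646 and 1946 CPM in region A. The probe was below 350 CPM in every region of tumours 501, 610, 1002, 1701 and 2203.

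Probe RTS0113072 came next in that order, at 1.89 log2 units. Its spread between libraries of the same letter was widest in tumours 2203 and 2206, whose letters are crossed between arrays by the counts. Its differences on arrays 1 and 2 were 2.01 and -1.94 in tumour 2203 and 4.63 and -5.38 in tumour 2206. These cancel in the measure, so its rank below RTS0113473 depends on the labels, and the ranking in the crossed order was not computed. Probe RTS0113072 was called in tumour 1001. It was at 96.98 and 172.4 CPM in region B of tumour 1001, against 2798 and 2870 CPM in region A, a log2 fold of -4.40 ± 1.04 (SE, adjusted p = 0.0023). This was its only call. Its F test over the tumours gave an adjusted p of 0.00477, and 0.0874 with array fitted within each tumour. The values in tumours 2203 and 2206, given above, are high and low across the letters, so that their log2 folds of 0.16 ± 0.77 and 0.40 ± 0.86 average opposite differences. In the crossed order, chosen on the same counts, the log2 fold in tumour 2206 was 4.77 ± 0.295 (SE).

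RTS0112258 and RTS0112272 differed in opposite directions in the same tumours. RTS0112258 was at 6681 and 7073 CPM in region B of tumour 2201, against 429.9 and 488.4 CPM in region A, a log2 fold of 3.91 ± 0.20 (SE, adjusted p = 4.67e-17). RTS0112272 was at 104.4 and 113.5 CPM in region B of the same tumour, against 2072 and 2729 CPM in region A (-4.43 ± 0.28, adjusted p = 1.96e-14). In tumour 404 RTS0112258 was at 1363 and 2146 CPM in region B, against 315.5 and 465.6 CPM in region A, a log2 fold of 2.12 ± 0.21 (adjusted p = 1.33e-09). There RTS0112272 was at 155.6 and 69.23 CPM in region B, against 1425 and 1257 CPM in region A (-3.23 ± 0.34, adjusted p = 6.34e-09). In each case the 2 libraries of a region lay close together beside the gap between regions. The cosine of their differences over the 10 tumours, which is 1 for proportional and -1 for opposite differences, was -0.96, and it was -0.93 on array 1 and -0.96 on array 2. Among probes past the F test, RTS0112272 was next most alike to RTS0113256 (0.92, but 0.47 on array 1 and 0.86 on array 2) and RTS0112296 (-0.91, with -0.91 and -0.59). RTS0113473 came closest to RTS0112140 (0.90), RTS0112017 (0.90) and RTS0113389 (0.89), with 0.62 to 0.80 on single arrays. RTS0113072 came closest to RTS0113413 (0.85), with only 0.49 and 0.36 on the single arrays, to RTS0112152 (0.83, with 0.71 and 0.86) and to RTS0113615 (-0.82, with -0.56 and -0.81).

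**Figure D4:**
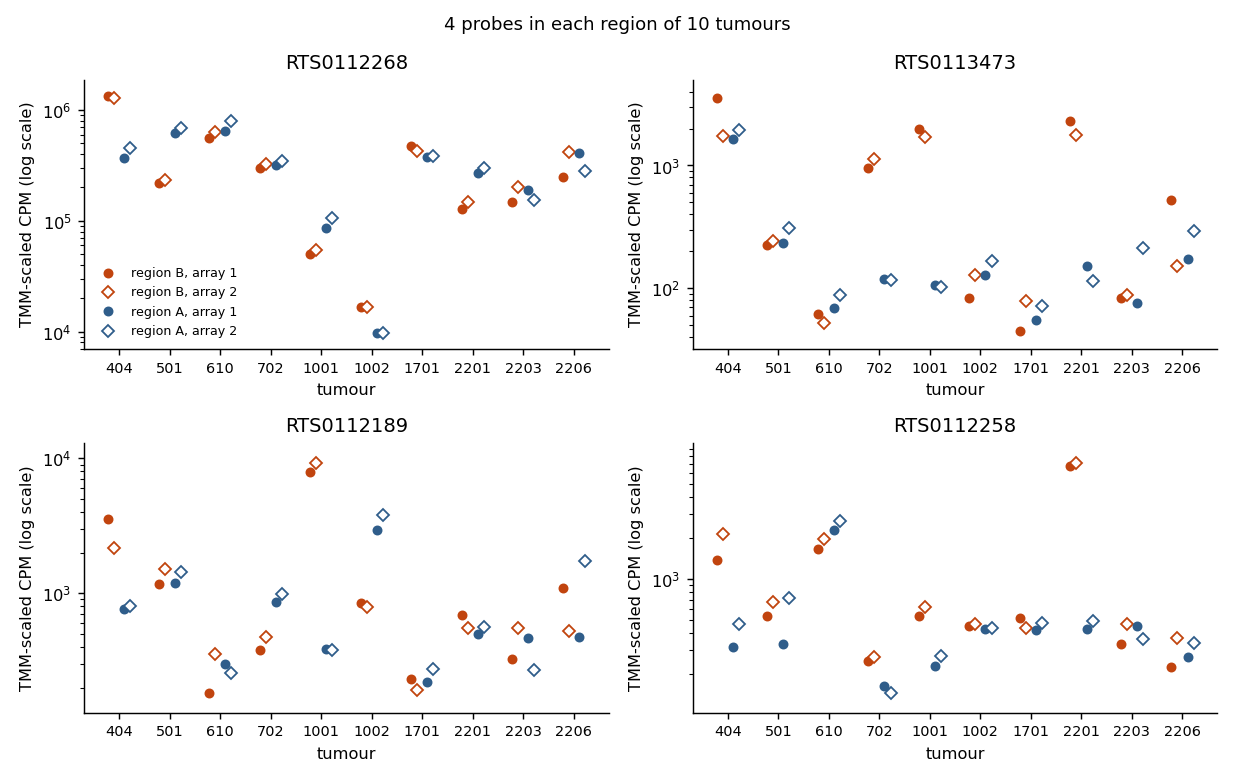
TMM-scaled CPM (vertical axes, log scale) of 4 probes in the 40 regions, by tumour (horizontal axes), with region B in orange left of region A in blue, array 1 as filled circles and array 2 as open diamonds. For RTS0112268, region B does not overlap region A in tumours 404, 501, 1001, 1002 and 2201, and RTS0112189 lies at 7952 and 9279 CPM in region B of tumour 1001, its highest values.

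Among the 12 probes with the largest differences, RTS0112189, RTS0112651, RTS0112367 and RTS0112365 differed together in the same tumours. RTS0112189 was at 7952 and 9279 CPM in region B of tumour 1001, against 389.0 and 380.3 CPM in region A, a log2 fold of 4.48 ± 0.32 (SE, adjusted p = 1.14e-13). In tumour 404 it was at 3553 and 2181 CPM in region B, against 770.6 and 800.9 CPM in region A (1.96 ± 0.31, adjusted p = 8.34e-06). Tumour 1002 went the other way, with 843.0 and 789.4 CPM in region B, against 2947 and 3801 CPM in region A (-2.04 ± 0.28, adjusted p = 1.65e-06). The regions did not overlap in any of these tumours. RTS0112651, RTS0112367 and RTS0112365 were called in the same 3 tumours in the same directions, with log2 folds of 4.07 to 4.37 in tumour 1001, 1.58 to 2.09 in tumour 404 and -1.90 to -1.71 in tumour 1002. Tumour 702 added calls for RTS0112189 (-1.11 ± 0.33, adjusted p = 0.0332), RTS0112367 (-1.20 ± 0.38, adjusted p = 0.0463) and RTS0112365 (-1.26 ± 0.34, adjusted p = 0.0185).

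The other probes among the 12 were each led by 1 or 2 tumours. RTS0112104 was called in 5 tumours, of which tumour 610 rested on 1 library, with 70.05 and 76.49 CPM in region B, against 430.4 and 58.93 CPM in region A. In tumour 1001 it was at 678.9 and 658.3 CPM in region B, against 86.73 and 75.79 CPM in region A (log2 fold 3.04 ± 0.36, SE, adjusted p = 2.39e-08). RTS0112317 was at 1314 and 1356 CPM in region B of tumour 1001, against 143.7 and 57.54 CPM in region A (3.83 ± 0.30, adjusted p = 9.28e-13). RTS0112266 was at 64.81 and 18.91 CPM in region B of tumour 2201, against 763.5 and 651.2 CPM in region A (-3.71 ± 0.32, adjusted p = 2.76e-11). RTS0112956 rested on few counts. In tumour 2206 it had 8 and 85 counts in region B, against 9 and 0 in region A, and its log2 fold was 4.30 ± 0.75 (SE, adjusted p = 0.00162), which was not called without that library of 85 counts (adjusted p = 0.412) or without region A on array 1 (adjusted p = 0.413). Region A on array 2 was the library of 17711 counts. The adjusted p was 0.0787 with array fitted within each tumour.

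In each tumour the called probes with the largest fold in either direction, among those with the same sign on both arrays, included several of those above. In tumour 1002 RTS0112180 was highest in region B, at 596.7 and 541.5 CPM, against 121.7 and 105.3 CPM in region A (log2 fold 2.32 ± 0.21, SE, adjusted p = 6.75e-10). RTS0112317 was lowest there, at 42.62 and 30.08 CPM in region B, against 160.8 and 218.0 CPM in region A (-2.43 ± 0.34, adjusted p = 1.89e-06). Tumour 702 had RTS0113503 lowest, at 124.8 and 333.1 CPM in region B, against 1123 and 1254 CPM in region A (-2.33 ± 0.28, adjusted p = 3.7e-07). In all 3 cases region B did not overlap region A. RTS0112180 was also called in tumours 404, 501, 702 and 1001, with at least a 2-fold difference on both arrays in each, and it was higher in region B of 404, 702 and 1002 and lower in region B of 501 and 1001.

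Several of these leading probes lost their call when 1 library was left out, some with their fold and some without. RTS0113706 was at 80.90 and 103.8 CPM in region B of tumour 404, against 880.1 and 894.0 CPM in region A (log2 fold -3.44 ± 0.59, SE, adjusted p = 3.39e-05). The libraries of a region lay close together, and without region B on array 1, which left a library of 3 counts there, the log2 fold was still -2.98 with an adjusted p of 0.136. RTS0113052 was at 609.9 and 34.62 CPM in region B of tumour 404, against 34.35 and 32.59 CPM in region A, so that 1 of the 2 libraries of region B carried the difference. Its log2 fold was 3.75 ± 0.41 (adjusted p = 1.06e-08), and 0.17 (adjusted p = 0.992) without region B on array 1. RTS0112349 in tumour 501 was at 49.36 and 54.00 CPM in region B, against 3757 and 103.0 CPM in region A, and its adjusted p of 1.37e-05 became 0.954 without region A on array 1, which held nearly all of its counts. RTS0112277 in tumour 2206 had 1 and 1 counts in region B, against 167 and 1 in region A, and its adjusted p of 5.77e-06 became 0.81 without region A on array 1.

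Calls of the remaining probes chosen in this way also changed with single libraries. RTS0112964, the lowest in region B of tumour 610, was at 42.32 and 62.83 CPM there, against 314.2 and 66.29 CPM in region A (adjusted p = 0.0101). Its adjusted p was 0.0732 with library size alone, 0.0729 with DESeq2 and 0.207 with array fitted within each tumour, and it was 1 without region A on array 1 and 0.998 without region B on array 1. RTS0112523, the highest in region B of tumour 501, was at 582.4 and 162.0 CPM there, against 134.6 and 51.50 CPM in region A (adjusted p = 0.0193). It gave 0.232, 0.959 and 0.0997 without region A on array 1, region B on array 1 and region A on array 2, in that order. In tumour 1701 RTS0112265 was at 14.86 and 31.37 CPM in region B, against 202.3 and 185.7 CPM in region A, without overlap (log2 fold -2.97 ± 0.69, adjusted p = 0.0111). Region B held 2 and 6 counts of it, and its log2 fold stayed at -3.65 to -2.63 without either library of array 1 or without region B on array 2, with adjusted p of 0.075 to 0.197. With array fitted within each tumour the log2 fold was -2.97, with an adjusted p of 0.0933. RTS0113598 in the same tumour was at 453.1 and 120.3 CPM in region B, against 75.44 and 60.66 CPM in region A (log2 fold 1.97 ± 0.34, adjusted p = 0.000639). Without region B on array 1 the log2 fold was 0.82, with an adjusted p of 0.622.

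RTS0112348 and RTS0113051 were called in 6 tumours, where 30.7% of probes passed the F test at all. RTS0112348 was higher in region B of tumours 702 and 1002 and lower in region B of 404, 1001, 1701 and 2201. It was at 449.6 and 595.6 CPM in region B of tumour 1001, against 1345 and 1319 CPM in region A (log2 fold -1.34 ± 0.21, SE, adjusted p = 8.96e-06). In tumour 702 it was at 578.7 and 726.0 CPM in region B, against 308.8 and 255.1 CPM in region A (1.23 ± 0.24, adjusted p = 0.000942). RTS0113051 was called in 404, 501, 702, 1001, 1002 and 2201, with log2 folds of 0.68 to 1.33 in 5 of them and -0.93 ± 0.19 in tumour 1002 (adjusted p = 0.000394). There it was at 1632 and 1757 CPM in region B, against 3122 and 3320 CPM in region A. RTS0113069, called in 5 tumours, is the next by its F test. It was at 2748 and 3064 CPM in region B of tumour 1701, against 889.9 and 882.3 CPM in region A (1.71 ± 0.15, adjusted p = 2.68e-10). In tumour 404 it was at 821.4 and 830.8 CPM in region B, against 163.1 and 186.3 CPM in region A (2.27 ± 0.20, adjusted p = 1.15e-10). Its libraries of 1 place differed by less than the regions did in both tumours.

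The probes that take the most counts also differed between regions of 1 tumour. RTS0112268 held 48.54% and 49.97% of the counts in region B of tumour 404, against 27.3% and 29.4% in region A. Tumour 501 had 29.5% and 29.9% in region B, against 46.3% and 47.2% in region A. In tumour 2201 it held 17.3% and 18.7% in region B, against 29.6% and 30.6% in region A. The shares on the 2 arrays lay close together and the regions did not overlap in these tumours. The TMM-scaled log2 folds were 1.68 ± 0.20 in tumour 404 (SE, adjusted p = 9.21e-08), -1.51 ± 0.20 in tumour 501 (adjusted p = 1.37e-05) and -1.06 ± 0.20 in tumour 2201 (adjusted p = 0.000139). RTS0112268 was also called in tumours 1001 (-0.87 ± 0.20, adjusted p = 0.00155) and 1002 (0.79 ± 0.20, adjusted p = 0.00488).

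RTS0112269 and RTS0113569 were called in the same 5 tumours as RTS0112268 and in the same directions, higher in region B of 404 and 1002 and lower in region B of 501, 1001 and 2201. RTS0112269 held 17.6% and 17.5% of the counts in region B of tumour 404, against 10.1% and 10.6% in region A, and 4.13% and 4.05% in region B of tumour 1001, against 8.63% and 9.48% in region A. RTS0113569 held 10.2% and 10.8% in region B of tumour 404, against 4.8% and 5.66% in region A. The ratio of these probes to each other was not fixed. In tumour 1002 RTS0112269 held 4.25% and 4.15% in region B and RTS0112268 held 3.01% and 2.90% there, while RTS0112268 held more than RTS0112269 in both regions of tumours 404, 501 and 2201.

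The scaled levels of the other probes depend on these shares. The 10 highest probes held 80.1% and 81.7% of the counts in region B of tumour 404, against 56.7% and 59.2% in region A. In tumour 501 they held 52.2% and 53.3% in region B, against 72.7% and 73.9% in region A. These are also the tumours in which library size alone shifted the median of all probes most.

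RTS0112273 and RTS0112944 were taken over from earlier work on these data, where RTS0112273 had the widest range over tumours and RTS0112944 varied least within tumours relative to between them. The small differences of RTS0112944 are therefore a description of how it was chosen. RTS0112273 was at 742.8 and 475.8 CPM in region B of tumour 1701, against 2318 and 1921 CPM in region A (log2 fold -1.82 ± 0.35, SE, adjusted p = 0.00171). In tumour 1001 it was at 3183 and 3331 CPM in region B, against 1229 and 1148 CPM in region A (1.46 ± 0.33, adjusted p = 0.00155). It was also called in tumour 2201 (-1.07 ± 0.32, adjusted p = 0.0189). Its within-tumour SD was 0.62 log2 units, against an SD of 2.82 between tumours. RTS0112944 was called in tumour 2201 alone, at 1132 and 1324 CPM in region B, against 800.0 and 909.7 CPM in region A (0.52 ± 0.17, adjusted p = 0.0318). Its root mean square difference was 0.29 log2 units and its adjusted p in the F test was 0.0324. That p was 0.0783 with upper quartile scaling and 0.286 with array fitted within each tumour.

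The spread within tumours was set beside that between tumours as a description, in which counting noise and the crossed order of tumours 2203 and 2206 are not separated from differences between regions. The within-tumour SD, divided by the SD of the 10 tumour means, had a median of 0.86 over all probes, with quartiles of 0.63 and 1.12. It was above 1 for 722 of 2010 probes. Over the 617 probes past the F test the median was 0.79, and 194 were above 1. The ratio was 0.96 for RTS0113473, 1.57 for RTS0112272, 1.10 for RTS0112189 and 0.36 for RTS0112268. At the other end, RTS0112233, RTS0113718, RTS0112698 and RTS0113270 had the smallest differences of the 503 most abundant probes, at 0.18 to 0.20 log2 units, and were called in 0 tumours by edgeR's test for each tumour. In tumour 2206 this average hides opposite differences of RTS0112233, which was at 1241 and 304.4 CPM in region B, against 397.3 and 1017 CPM in region A, so it was high and low across the letters there, as was RTS0113072. Their tumour means still spread by 0.30 to 0.50 log2 units (SD). With library size alone RTS0113718, RTS0112698 and RTS0113270 passed the F test.

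Probes that differ together were found by joining the 617 called probes on the cosine of their differences over the 10 tumours, at 0.8 or above. There were 28 groups of 5 probes or more, holding 227 probes. The median cosine was 0.03 over all pairs of called probes. The members were chosen on these differences, so the differences of a group and the number of its members called are a description. Of all probes, 16.3% were called in tumour 404, 6.67% in 702, 13.5% in 1001, 11.4% in 1002 and 15.3% in 2201. Levels in the 14 other tumours were not used for the choice. There the median pairwise Pearson r, over 14 tumours, was 0.06 for all pairs of called probes.

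The first group had 25 probes, led by RTS0112818, RTS0112429, RTS0113057 and RTS0113122. They were lower in region B of tumour 404, by a mean of -1.02 on array 1 and -1.61 on array 2 (log2 CPM), with 20 of 25 called. They were higher in region B of tumour 702, by 0.80 and 1.06 with 15 called, and of tumour 2201, by 0.85 and 0.92 with 19 called. In the 14 other tumours the median pairwise r of these probes was 0.66. Of the 25 probes, 13 were in a set of 131 probes high in kidney among the control tissues, which is 52.0% of the group and 9.92% of the set. Of all 617 called probes, 67 were in that set. RTS0112944 belongs to this group.

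The second group had 21 probes, among them RTS0112189, RTS0112651, RTS0112367 and RTS0112365. They were higher in region B of tumour 1001, by 2.94 on array 1 and 2.83 on array 2, with 21 of 21 called, and of tumour 404, by 1.38 and 0.97 with 15 called. In tumour 1002 they were lower in region B, by -1.11 and -1.38 with 19 called. The median pairwise r in the 14 other tumours was 0.70. Of the 21 probes, 12 were in a set of 99 probes high in spleen, which is 57.1% of the group and 12.1% of the set. Of all 617 called probes, 72 were in that set. The group averaged 8.32 log2 CPM over the 40 regions and 7.39 to 10.33 over the 14 other tumours, against 9.73 in spleen, 8.61 in liver and 7.64 in kidney.

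The third group had 19 probes and was set mainly by tumour 404, with means of -1.26 on array 1 and -1.99 on array 2 and 19 of 19 called there. Its median pairwise r in the 14 other tumours was 0.55. The mean level of the third group followed that of the first over those tumours, with a Pearson r of 0.91 over 14 tumours, given as a description. This was the highest r of the pairs among the 4 largest groups. The fourth group, described next, gave 0.60 with the first and 0.44 with the third. Its cosines with them over the 10 tumours were -0.635 and -0.488. Groups that differed in opposite directions within tumours thus also had levels that rose together between tumours.

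The fourth group had 15 probes and included RTS0112268 and RTS0112269. It was higher in region B of tumour 404, by 1.48 on array 1 and 1.07 on array 2 with 14 of 15 called, and of tumour 1002, by 0.90 and 0.84 with 11 called. It was lower in region B of tumour 1001, by -1.07 and -0.93 with 12 called, and of tumour 2201, by -1.02 and -1.10 with 10 called. In tumour 501 its mean difference of -0.60 became 0.24 with library size alone, while the other directions given for these 4 groups kept their sign under the 3 scalings. Their size in tumour 404 did not. With library size alone, the first group had a mean of -2.14 in place of -1.32, the second 0.31 in place of 1.17, the third -2.45 in place of -1.63 and the fourth 0.40 in place of 1.27. The probes of the fourth group were only weakly related in the 14 other tumours, with a median pairwise r of 0.23, against 0.06 for all pairs of called probes. That r is of levels between tumours, a measure unlike the cosine of differences on which the members were chosen. The fourth group averaged 10.56 log2 CPM over the 40 regions, above its 7.83 in kidney, 7.93 in spleen and 7.38 in liver.

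**Figure D5:**
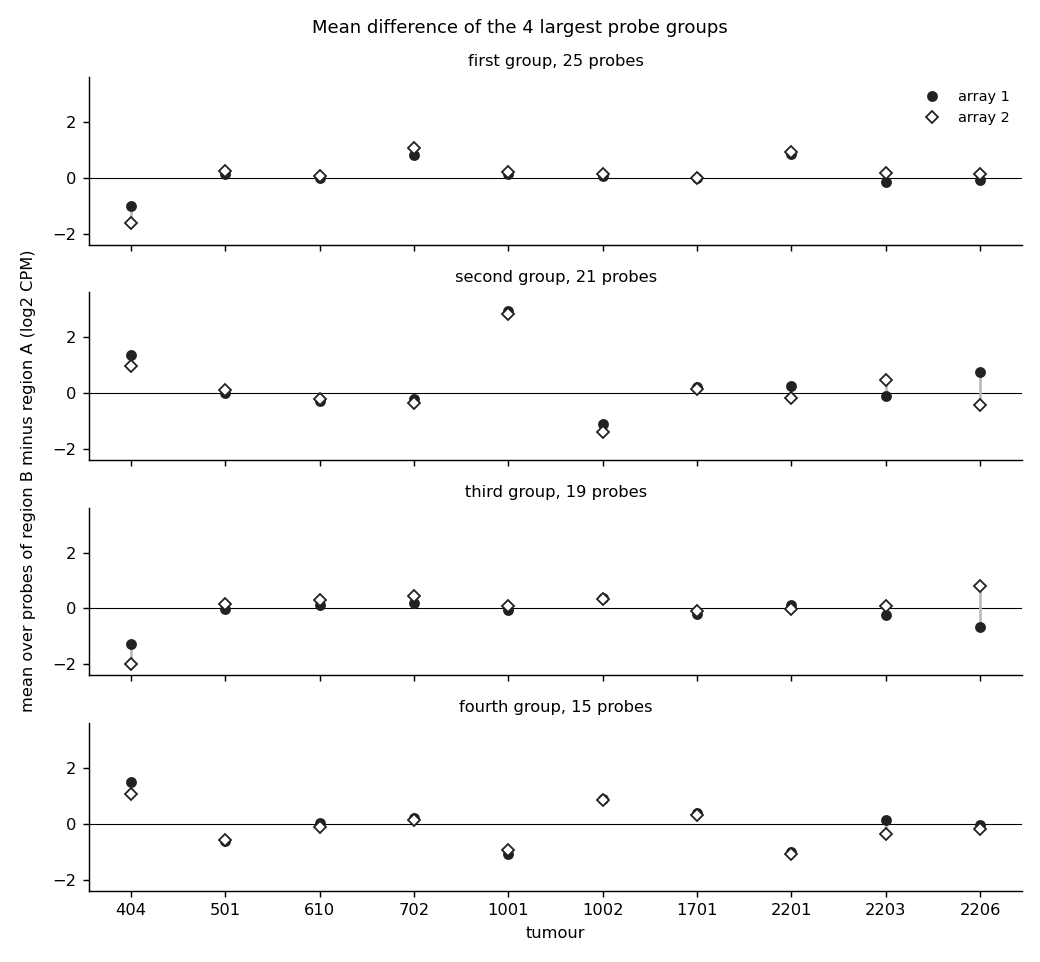
Mean over the probes of a group of the difference between regions B and A (vertical axes, log2 CPM) in each tumour (horizontal axis), for the 4 largest groups, with array 1 as filled circles and array 2 as open diamonds. The second group stands at 2.94 and 2.83 in tumour 1001, and the first group and the third lie lowest in tumour 404.

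RTS0113473 was in a group of 5 probes that were higher in region B of tumour 1001, by a mean of 2.06, of tumour 2201, by 1.66, and of tumour 702, by 1.54. Its median pairwise r in the 14 other tumours was 0.54. In tumour 2206 these probes averaged 1.33 on array 1 and -1.41 on array 2, with 0 of 5 of the same sign on both arrays. RTS0112272 and RTS0113706 were in a group of 7 that was lower in region B of tumours 404, by -2.25, and 2201, by -1.86. The median pairwise r of that group in the other tumours was 0.03, close to the 0.06 of all pairs of called probes. Likewise RTS0112258 was in a group of 5 with a median pairwise r of -0.02 there.

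Probes high in a control tissue were called more often than probes at large in spleen and kidney. Of the 99 spleen-high probes, 72 passed the F test (72.7%), as did 67 of 131 kidney-high probes (51.1%) and 15 of 46 liver-high probes (32.6%), against 30.7% of all probes. These sets were chosen in the control regions, and no test of the shares was made. The share also rises with the level of a probe, as given above, and the part of level in these shares was not tested. As a whole the spleen-high set was higher in region B of tumour 1001, by a mean of 0.67 on array 1 and 0.69 on array 2 (log2 CPM). There 33 of its probes were called higher and 10 lower, beside 189 and 83 of all probes. In tumour 1002 the set was lower in region B, by -0.29 and -0.35, with 12 called higher and 31 lower beside 104 and 125 of all probes. The medians of all probes were -0.06 and 0.001 in tumour 1001 and -0.01 and -0.01 in tumour 1002. Tumour 404 had 27 spleen-high probes called higher and 12 lower, but the set's difference was 0.39 on array 1 and -0.09 on array 2. Its mean of 0.15 was -0.70 with library size alone and 0.36 with upper quartile scaling, for which the sets were chosen anew, so that no direction is given for it. The kidney-high set differed by -0.14 and -0.56 in tumour 404, where the medians of all probes were 0.01 and -0.23, with 16 called higher and 35 lower beside 127 and 201 of all probes. Its mean of -0.35 was -1.15 with library size alone and -0.18 with upper quartile scaling. The kidney-high set was higher in region B of tumour 2201, by 0.22 and 0.20, with 29 called higher and 8 lower beside 184 and 124 of all probes. This was not particular to that set. The liver-high set was higher there by 0.22 and 0.20, and the spleen-high set by 0.18 and 0.065.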

How the data were processed

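Per the file headers, the authors deposited raw counts per probe, from GeoMx NGS pipeline version 2.3.4. No normalization is recorded there. Reads carry molecular identifiers, and 95.7% to 98.9% of aligned reads added nothing to a count. Aligner settings and filters are not given in the sources used here. The probe set is the Canine Cancer Atlas, per the labels. None of the 2010 probe identifiers matched the dog gene table of assembly UU_Cfam_GSD_1.0. No background was subtracted here.

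From the counts, edgeR 4.0.16 in R 4.3.3 was run on the 40 regions with 20 places and array in the design, TMM scaling and the filterByExpr filter, which kept all 2010 probes. An F test over 10 contrasts and 1 contrast per tumour were made, and SE is the log2 fold divided by the root of the F statistic. The scatter between libraries of a place was 12.8% (common biological coefficient of variation). CPM refer to the TMM-scaled total, so those of 1 region need not sum to 1e+06, and log2 CPM used a prior count of 2. The fit was tested on simulated data. Deposited counts of the no-template control were not used. Alternatives were upper quartile scaling, library size alone, DESeq2 1.42.0, limma 3.58.1 with voom, other filters, no array term, a replicate block (array within each tumour), thinning, depth as a covariate, and leaving out tumours or regions.

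The array numbers did not mark pairs. The change between arrays was correlated over probes between places A and B of a tumour at -0.01 to 0.10 in 8 tumours and at -0.21 in tumours 2203 and 2206. Depth limits precision, and values cover counting error and the spread over 2 arrays.

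Named probes were the 12 past the F test with the largest root mean square difference, the called probe of largest fold in each direction per tumour, the 3 called in most tumours, the 3 closest to each of the first 4, the 4 steadiest abundant ones, and 5 from earlier work. Control-tissue probe sets took probes whose 4 regions of a tissue all exceeded the regions of both other tissues, with a mean at least 1 log2 unit higher; this rule came from earlier work. The tumours, lists and rules were chosen with earlier results of these data known.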

Additional observations from a re-analysis of the deposited data

Results flagged for a closer look

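For 23 measures, each taken over the 10 tumours, the highest and lowest tumour were compared with the nearest other by Dixon's ratio at its 95% level, and 7 had a tumour standing apart. For normally distributed values, chance sets about 1 in 20 such groups apart. The flagged measures are absolute differences, which cannot fall below 0, so this rate need not hold for them. In addition, 12 of the probes tested were chosen for large differences, which favours a tumour standing apart. In tumour 1001 the absolute difference between regions B and A stood apart for the spleen-high probe set, at 0.68 log2 units with 0.321 in the next tumour, and for RTS0112189 at 4.456, RTS0112651 at 4.312, RTS0112367 at 4.069 and RTS0112365 at 4.055, with 1.654 to 2.05 in the next tumours. These 4 probes belong to 1 group, so they are not separate observations. RTS0112266 stood apart in tumour 2201, at 4.047 with 2.164 in the next tumour. That next tumour was 2206, with -0.54 on array 1 and 4.86 on array 2, where region A held 0 counts of this probe. RTS0112956 stood apart in tumour 2206, at 4.576 with 1.705 in the next, where region A on array 2 held 17711 counts in all and 0 of this probe. Total counts in tumour 1001 differed by log2 ratios of -1.93 and -2.58, and their part in its values was not tested.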

How the results depend on the processing

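The F test's 617 calls became 1211 with library size alone and 105 with thinning to the lowest total, and 487 to 736 without 1 tumour, 487 being without tumour 404 and 736 without 2206. With the replicate block (array within each tumour) 398 were called, all among the 617, and the block gave 15 calls in tumour 501, 0 in 610, 64 in 702, 11 in 1701 and 1 in 2206. Array numbers were not found to pair the libraries, so these losses are not read as weaker effects. Other tests, scalings and filters gave 539 (limma with voom) to 654 (DESeq2). Per tumour, library size alone called 952 in 404, 627 in 501, 0 in 610 and 2 in 2206, and DESeq2 called 0 in 610. The crossed order, added after seeing the data, called 153 in 2203 and 190 in 2206. Leaving out 1 region, which leaves a place with 1 library assumed to vary like the others, gave 109 to 274 calls in tumour 404 (109 without region B and 217 without region A on array 1), 13 to 20 in 501, 0 to 7 in 610, 40 to 107 in 702 (lowest without region B on array 2), 177 to 207 in 1001, 132 to 152 in 1002, 10 to 17 in 1701, 135 to 247 in 2201 (lowest without region A on array 1), 0 to 4 in 2203 and 1 to 37 in 2206 (37 without region B and 17 without region A on array 2). Probe groups of 5 or more held 42 probes at a cosine of 0.9 and 361 with library size alone, against 227. The median absolute difference of the liver-high set was 0.317 log2 units with library size alone, against 0.085. The cause of these changes was not tested, beyond the fewer libraries or counts. Of the 17 named results that are folds in 1 tumour, 0 changed direction, and the other 24 are root mean squares, which carry none. Of the named results, 15 of 68 without a region and 5 of 41 under the block lost their call. Median recurrence over tumours moved by less than its SD over tumours under every scaling, prior count and filter tried. Depth was low in tumours 2206, 404 and 501 on array 2, with median counts per probe down to 2, 3 and 5, and differences of probes with few counts there were not detectable at this depth.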
